A study of Drosophila melanogaster with 135 samples.

Results

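The transcriptome of esc heads was compared with that of WT heads at 30d. The comparison covers the 9060 of 17023 annotated genes whose mean normalized count over the WT and esc groups was at least 10. A normalized count is the number of reads on a gene divided by the size factor of its library, which adjusts for sequencing depth. Tmhs, with a mean of 10.02997, was the last gene inside this minimum, at 12.1 in WT and 7.97 in esc, and ste24b, with 9.99981, was the first outside it, at 12.7 and 7.28.

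Each group held 3 libraries of the 135 samples in the series. The esc group carried esc289, a deletion of the esc gene made with CRISPR/Cas9, which the study describes as heterozygous over a WT chromosome. The WT group was the line 5905, of w1118 background, and it also served as the control of E(z)239, of Su(z)12253 and of Pcl libraries labelled Pcl421, Pcl422 and Pcl423. All flies were males aged 30 days, and each library was made from polyadenylated RNA of 50 pooled heads. The deletion line is 1 allele that had been backcrossed into 5905 for 5 generations. Further material with the same esc289 allele were heads of esc289; E(z)239 flies and muscle of esc289 flies, each with its own WT libraries.

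Polycomb Repressive Complex 2 (PRC2) places methyl groups on lysine 27 of histone H3, and the trimethylated form, H3K27me3, marks silenced developmental genes such as the Hox genes. E(z) is the enzyme of the complex, Su(z)12 and Caf1 are core partners, and esc is the WD-repeat subunit that binds methylated lysine 27 and stimulates the enzyme. escl is a close relative of esc that can take its place, and Pcl, Jarid2 and jing are accessory subunits. The question put to these libraries was which genes of the head change in an old fly that carries 1 damaged copy of esc.

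The sequences that define the allele are shown first. esc lies on chromosome arm 2L of the Release 6 genome (dm6), on the minus strand, from 11827204 to 11829405, as a gene of 4 exons and 1704 transcript bases. Both guides are designed sequences of the study. Each has 1 match on the arm, on the plus strand, inside the coding sequence, guide 1 at 11829071 to 11829090 in exon 2 and guide 2 at 11828782 to 11828802 in exon 3. In the lines that follow, the guide is in lower case and capitals mark the PAM, the bases next to the guide that Cas9 needs, read from the RefSeq copy of the genome.
esc guide 1: ggtgctgttggtggtatagcTGG
esc guide 2: gggcactcgtagacggtcaccCGG
The deleted segment runs from 11828798 to 11829086. The 20 bases on either side of it, which are joined in the mutant chromosome, read as below on the strand of the gene.
flank before the deletion: caggatgagtcggccagcta
flank after the deletion: ccgtctacgagtgccctcga
The deletion removed 117 bases of exon 2, the whole intron of 62 bases between the 2 exons and 110 bases of exon 3. Of the 1275 coding bases 227 were lost, a number that leaves a remainder of 2 when divided by 3, so the reading frame downstream is shifted. The lost exon bases are 13.3% of the transcript, and reads of the deleted stretch can come only from the WT copy.

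The 3 WT libraries held an estimated 4695264 to 5429541 reads on genes and the 3 esc libraries 4576842 to 6176855. These are the sum of the group means times each size factor, not counted reads. The deposited table holds 1 mean for each group. Reads per library could be recovered from the means of 7328 genes, by a procedure described with the processing, and these genes were tested with limma on log2(normalized count + 1) with Benjamini-Hochberg adjustment. The 1732 genes with higher counts, all with a mean of 483 or more, are given as ratios of the group means with no test. Libraries are named a, b and c in order of falling size factor, since the recovered values carry no replicate number. Libraries of 1 group differed by more than sampling noise, with a mean chi-square per gene of 1.42 to 1.97 between pairs. The study calls them biological replicates.

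The esc transcript itself was lower in the mutant. Its normalized count was 66.8, 55.9 and 65.7 in WT libraries a, b and c and 33.1, 43.6 and 36.0 in esc libraries a, b and c. All esc libraries were below all WT libraries. The mean fell from 62.8 ± 6.0 to 37.5 ± 5.42 (SD, n = 3 each), a log2 ratio of -0.74. The limma estimate was -0.73 with a standard error of 0.17 and an adjusted p of 0.0137. The call is near its threshold. With 1 library left out it was lost without WT a (adjusted p = 0.0800 by limma), WT c (0.0608), esc a (0.0712) or esc c (0.0518), and kept without WT b (0.0140) or esc b (0.0152).

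No other subunit of PRC2 passed the test, and 1, Jarid2, had an unadjusted p under 0.05 (0.0413 by limma). E(z) was at 171, 192 and 177 in WT and 164, 183 and 169 in esc, a log2 ratio of -0.07. The ratio was 0.04 for Su(z)12, 0.10 for Pcl, -0.02 for Caf1, 0.14 for Jarid2 and 0.08 for jing. escl, 164 kb from esc on the same arm, was at 35.2, 36.3 and 24.0 in WT and 29.1, 35.7 and 36.0 in esc, a log2 ratio of 0.08 with overlapping groups. The 12 genes of PRC1 and PhoRC, the complexes that read or help recruit the mark, held 0 genes that passed limma and 0 past 1.5-fold, and so did the 8 genes of the H3K27 demethylase and trithorax list, of which 5 were tested. At an unadjusted p under 0.05 the numbers were 2 and 1. Among all 7328 tested genes limma called 3.78%, and 1029 had an unadjusted p under 0.05.

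Across the head, most genes differed little. The median log2 ratio was -0.0004, and 89.2% of genes lay within 5/4-fold. Past 1.5-fold were 130 genes that were higher in esc (1.43%) and 139 that were lower (1.53%), in all 2.97%. This share lay within the range between WT groups. The 3 groups of WT heads at 30d were collected as controls of different mutants and carry no mutation. Between them 2.06%, 2.98% and 3.30% of genes were past 1.5-fold after centring. These groups were scaled apart, and their differences hold those between experiments too. The range therefore cannot decide how far the fold alone sets esc apart from WT.

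By limma, 176 of the 7328 tested genes were higher in esc (2.40%) and 101 were lower (1.38%), in all 277. Most of these changes were modest. The median absolute log2 ratio of the called genes was 0.49, the median standard error over tested genes was 0.12, and 60 of the higher and 49 of the lower genes were past 1.5-fold. In 270 of the 277 the libraries of the groups did not overlap. Over all tested genes every esc library was above every WT library in 9.81% and below in 9.14%. When each library was left out in turn, 124 of the 277 were called all 6 times and 10 were called in none. A fit without the mean-variance trend called 11 higher and 10 lower, and a fit with all 5 groups that share the control called 71 and 43.

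**Figure D1:**
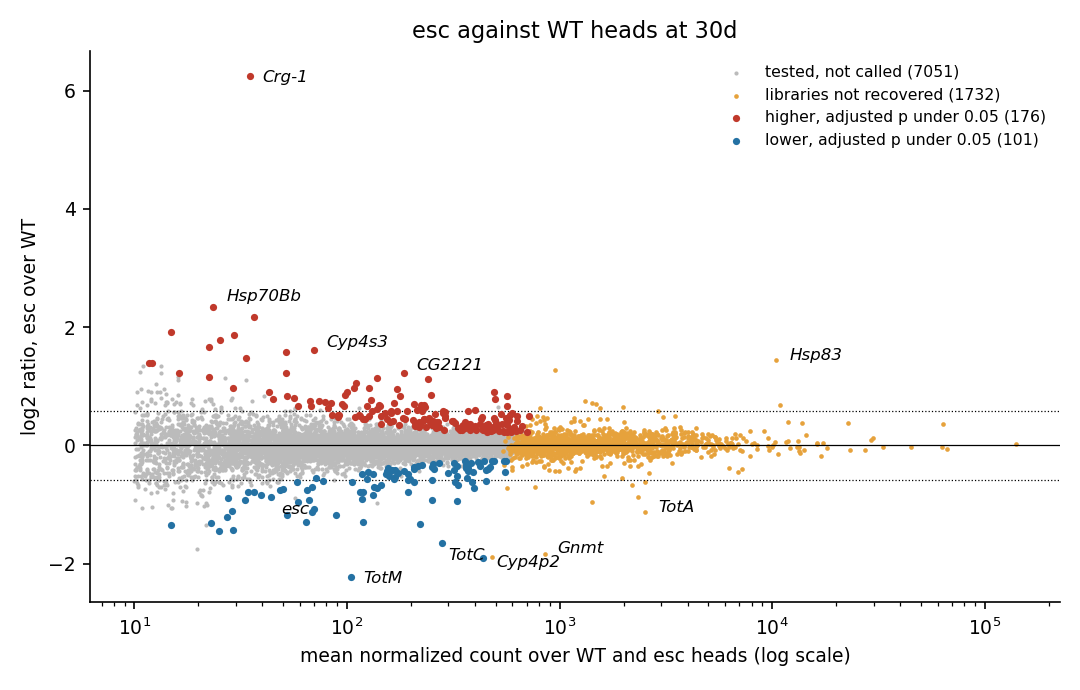
Each point is 1 of the 9060 genes, with its mean normalized count over WT and esc heads (x axis, log scale) and the log2 ratio of esc to WT (y axis). Red points (176) were higher and blue points (101) lower by limma, grey points were tested and not called, orange points (1732) were not tested, and dotted lines mark 1.5-fold. Most genes lie near 0 (median -0.0004), with Crg-1 at the top and TotM at the bottom (-2.23).

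The largest rise was that of Crg-1, a forkhead-domain gene on the X chromosome named for its regulation by the circadian clock. WT libraries a, b and c held 3, 0 and 0 reads and esc libraries 58, 80 and 74. Adjusted for depth, this is 68.9 times as many, with an exact interval of 23.3 to 337 that covers counting error only. The adjusted p by limma was 2.89e-07. The level in this WT group was itself low. Its scaled level, the group mean per 1000000 normalized counts, was 0.184 here and 1.07 and 0.794 in the other 2 groups of WT heads, against 13.8 in esc heads. The gene overlaps other annotated transcripts, and reads were counted without strand. Crg-1 was chosen after its values were seen. It was also higher in the other mutant heads. Against the same WT libraries its log2 ratio was 4.88 in E(z), 5.48 in Pcl and 3.88 in Su(z)12 heads, the last untested. With other WT controls it was 4.31 in esc E(z) heads (limma adjusted p = 1.44e-07) and 4.10 in Pcl Su(z)12 double mutant heads (4.43e-05).

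Among genes with a mean of at least 50, the largest tested rise was that of Cyp4s3, a cytochrome P450. It went from 37.0, 32.4 and 33.4 in WT to 80.7, 138 and 97.0 in esc, a log2 ratio of 1.62 (limma adjusted p = 1.16e-05). Every esc library was more than 2-fold above the highest WT library. Osi2, a member of the Osiris gene family of insects, followed with 25.3, 16.7 and 35.5 against 52.5, 85.2 and 93.7 and a log2 ratio of 1.58 (adjusted p = 0.000296). CG2121 was at 95.7, 124 and 113 in WT and 282, 241 and 255 in esc (log2 ratio 1.23, adjusted p = 4.29e-07). Both Osi2 and CG2121 had groups that did not overlap. In the other groups of WT heads, which were scaled apart, the means were 47.0 and 54.9 for Cyp4s3, against 105 in esc heads. They were 43.8 and 58.5 for Osi2 (77.1 in esc) and 247 and 349.7 for CG2121 (111 in this WT control, 259 in esc). The sum of all group means was 4899703 in this WT control, 4986918 in esc and 5925056 and 7451648 in the other WT heads. Means of the other WT heads therefore overstate their levels beside esc heads.

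Other large rises were spread over known functions. Cyp4e3, another P450, was at 110.1, 182 and 161 in WT and 360.1, 297 and 330.1 in esc, a log2 ratio of 1.12 (adjusted p = 1.18e-05). Mal-B1, a maltase that splits sugars, is described with the genes near esc. Hr38, the fly NR4A nuclear receptor, whose transcription follows neuronal activity, went from 62.3, 88.3 and 68.9 to 142, 129 and 160.2 (log2 ratio 0.97, adjusted p = 0.000110). NT5E-2, a 5'-nucleotidase, rose by a log2 ratio of 0.85 (adjusted p = 0.000476). The remaining rises of this rank were ventrally-expressed-protein-D (1.22), CG5290 (1.05), CG42326 (0.98), CG3397 (0.96) and CG4962 (0.91), each with an adjusted p under that of NT5E-2. The call of CG3397 was kept with each library left out and lost in the 5-group fit (adjusted p = 0.0649). The other groups of WT heads, scaled apart, had means of 155 and 178 for NT5E-2 and 268 and 336 for CG3397. Those of esc heads were 125 and 228. For Cyp4e3 the other WT heads had 146 and 271 against 329 in esc, and for Hr38 65.2 and 126 against 144. These means too are not divided by the sums of group means, which were larger in the other WT heads. Hsp83 and CG34166, which went from group means of 554 to 1343 (log2 ratio 1.28), could not be tested.

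The fall with the smallest p was that of Cyp4p2, again a P450. Its libraries held 638, 771 and 658 in WT and 207, 172 and 170.0 in esc, so that the lowest WT library was 3-fold above the highest esc library. The log2 ratio was -1.91 (limma -1.91, standard error 0.09, adjusted p = 5.43e-12). In the other groups of WT heads, scaled apart, the means of Cyp4p2 were 335 and 676, against 689 in this WT control and 183 in esc heads. Those groups had larger sums of group means, as given above, so their means overstate their levels beside this control. The size of the fall thus depends on the WT group used. CG42876 fell from 187, 147 and 172 to 68.6, 67.4 and 69.7, a log2 ratio of -1.30 (adjusted p = 9.39e-07), and its neighbour CR44602, a non-coding gene chosen after its values were seen, from 37.0, 33.3 and 38.6 to 10.5, 18.8 and 10.9 (-1.44, adjusted p = 0.00147). Both lie on 2L, the arm of esc, at 3983 and 3980.4 kb from it. lectin-28C, at 3969.7 kb from esc, was also lower (-0.94, limma adjusted p = 0.000476).

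Several metabolic enzymes were among the genes with the largest falls in ratio. Nmdmc, a mitochondrial enzyme of folate metabolism, was at 282, 269.7 and 388 in WT and 129, 131 and 118 in esc, with no overlap, and had a log2 ratio of -1.32 (adjusted p = 4.29e-07). Gnmt, glycine N-methyltransferase, which consumes the methyl donor S-adenosylmethionine, went from a group mean of 1328 to 371 (log2 ratio -1.84). Its WT libraries could not be recovered, and its esc libraries held 326, 532 and 254. bgm, an acyl-CoA synthetase for very long fatty acids, went from 1878 to 963 (-0.96), also without a test. The other groups of WT heads, scaled apart and with larger sums, had means of 824 and 1265 for Gnmt and 1249 and 2320.1 for bgm. SCOT, which activates ketone bodies, fell from 407, 448 and 449.8 to 276, 305 and 313 (-0.55, adjusted p = 8.78e-05). SCOT was chosen after its values were seen.

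rk encodes the receptor of bursicon, the hormone that hardens the cuticle after moulting, and was at 84.8, 75.5 and 55.3 in WT and 34.7, 30.7 and 30.5 in esc (log2 ratio -1.17, adjusted p = 0.000428). Dr, a homeobox gene of the msh family, went from 114, 71.6 and 88.7 to 29.1, 50.5 and 32.7 (-1.29, adjusted p = 0.000311). Neither gene had overlapping groups. CG17386 fell from 366, 326 and 589 to 88.8, 228 and 91.5 (-1.65, adjusted p = 9.05e-05), and esc library b stood apart from the other 2. For CG17386 the level of this WT group was also unusual, with a scaled level of 87.1 against 36.0 and 18.2 in the other groups of WT heads and 27.3 in esc heads. Dhc62B, an axonemal dynein heavy chain (-0.95), CG8147 (-1.17) and CG4500 (-1.12) complete the genes of this rank outside the lists described next. The call of CG4500 was lost with 1 library left out (highest adjusted p = 0.0522), and that of CG8147 was kept with each library left out (highest adjusted p = 0.0153) and lost in the 5-group fit (0.259).

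**Figure D2:**
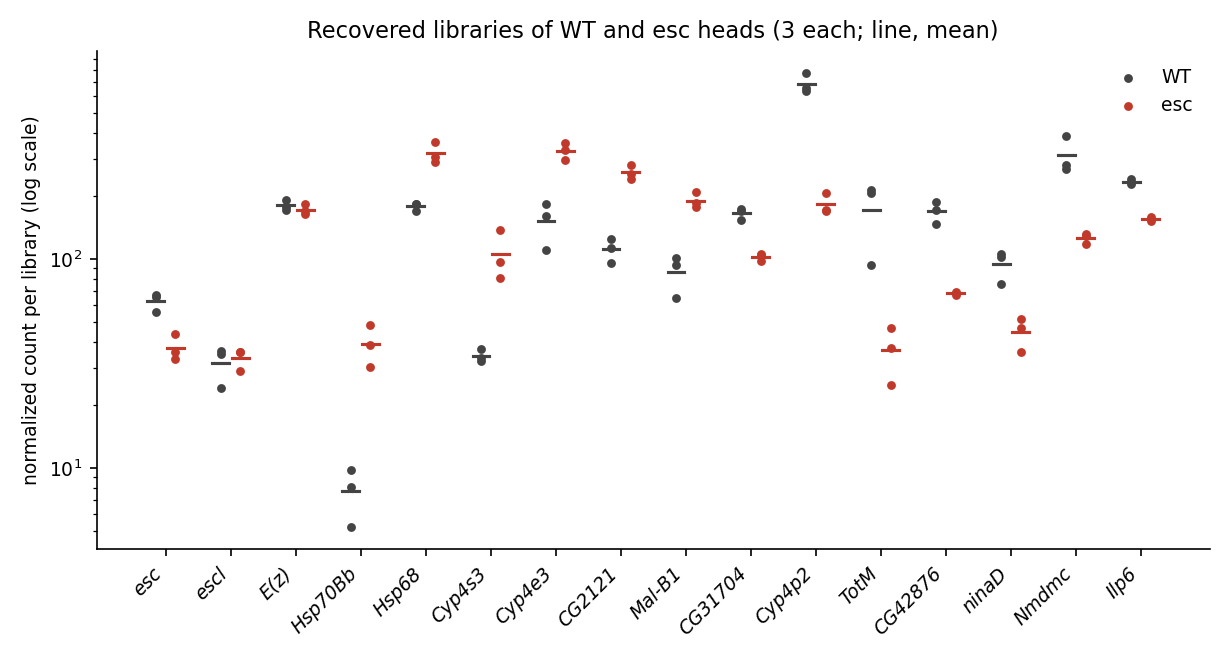
Normalized counts (y axis, log scale) of 16 genes in the 3 WT libraries (grey) and 3 esc libraries (red), with a line at each group mean. esc libraries lie below WT libraries for esc and Cyp4p2 (lowest WT 638, highest esc 207) and above them for Hsp68 and CG2121, while the groups overlap for escl and E(z).

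Of the 13 measured genes of the heat shock list, 5 were past 1.5-fold and all 5 were higher in esc. Over all measured genes 1.43% were past 1.5-fold higher and 1.53% lower. The list holds chaperones, which refold proteins and are made in excess under stress. Hsp68, an inducible member of the Hsp70 family, was at 182, 169.7 and 183 in WT and 363, 291 and 308 in esc (log2 ratio 0.85, adjusted p = 8.54e-06). Hsp70Bb went from 8.12, 9.81 and 5.22 to 48.4, 38.6 and 30.5 (2.34, adjusted p = 5.13e-05) and Hsp70Bc from 6.32, 29.4 and 4.17 to 75.9, 67.4 and 36.0 (2.17, adjusted p = 0.00110). In all 3 genes every esc library was above every WT library, though for Hsp70Bc WT library b came near esc library c. The Hsp70 copies are nearly identical in sequence, so how their reads were divided among copies is uncertain.

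These 3 were the genes called among the 9 of the list that could be tested, and they stayed called with each library left out in turn. Over all tested genes 2.40% were called higher. The other 2 past 1.5-fold were too abundant to test. The group means of Hsp83, the fly Hsp90, were 5601 in WT and 15307 in esc (log2 ratio 1.45) and those of DnaJ-1, an Hsp40 co-chaperone, 1131 and 1835 (0.70). The median log2 ratio of the list was 0.29. The small heat shock proteins had lower ratios. Hsp26 was at 82.1, 55.9 and 30.3 in WT and 78.3, 38.6 and 49.0 in esc, and the log2 ratio was -0.02 for Hsp26, -0.17 for Hsp27 and 0.29 for Hsp23, none of which passed the test.

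Partners of Hsp90 and Hsp70 outside the list, chosen after their values were seen, included Hop, the adaptor between both chaperones. It was at 460.2, 540.4 and 572 in WT and 743, 720.1 and 763 in esc (log2 ratio 0.50, adjusted p = 8.38e-05). The untested ratios were 0.45 for Hsc70Cb, a nucleotide exchange factor, and 0.38 for Hsc70-4, the constitutive Hsp70. The scaled level of Hsp83 was 1143 in the WT control, 1175 and 733 in the other groups of WT heads and 3069 in esc heads. Those other groups were scaled apart, and a difference between experiments was not tested.

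Heads of the other single mutants share the WT libraries of esc heads, so their ratios are given side by side. The log2 ratio of Hsp83 was 1.86 in E(z), 1.66 in Pcl and 1.78 in Su(z)12 heads, and that of Hsp68 was 1.26, 1.08 and 1.11. In esc E(z) heads, with their own WT control, the ratio of Hsp83 was 0.09, that of Hsp68 was -0.14 (adjusted p = 0.644) and that of Hop was 0.01. In esc muscle it was 0.53 for Hsp83 and 0.46 for Hsp68, neither tested. Hsp26 parted esc from the other single mutants, with log2 ratios of 1.84, 1.27 and 1.23 in those. A direct limma test of esc heads against the mean of the other 3 gave -1.48 for Hsp26 (standard error 0.24, adjusted p = 0.000529).

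The Turandot genes encode small secreted peptides that the fat body makes under stress. Of 4 measured members 3 were past 1.5-fold, all lower in esc, and the median log2 ratio was -1.50. Over all measured genes 1.53% were past 1.5-fold lower. TotM was at 206, 214 and 92.9 in WT and 25.0, 37.6 and 46.9 in esc (log2 ratio -2.23, adjusted p = 1.16e-05), with WT library c lower than the other 2 and still above all esc libraries. TotC went from a group mean of 759 to 206 (-1.88) and TotA from 3463 to 1599 (-1.12), both without a test. TotX was not called (adjusted p = 0.956), at 299, 230.5 and 212 against 277, 232 and 218. The scaled level of TotM was 34.9 in the WT control, 14.5 and 19.0 in the other WT heads and 7.32 in esc. That of TotA was 707, 944, 898 and 321 in the same order.

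The antimicrobial peptides, the effectors of the humoral immune response, differed widely between libraries of a group. Of 15 measured genes 5 were past 1.5-fold higher and 1 lower, with a median log2 ratio of 0.45. Over all measured genes these shares were 1.43% and 1.53%, and limma called 2.40% of all tested genes higher and 1.38% lower. Of 12 tested only Dro (Drosocin) passed, at 320.4, 401 and 379.8 in WT and 526, 812 and 557 in esc (log2 ratio 0.78, adjusted p = 0.000213). The call of Dro was kept with each library left out (highest adjusted p = 0.00213) and lost in the 5-group fit (0.373). WT library b carried high values of several peptides, for example 196 for CecA1 where WT libraries a and c had 32.5 and 40.7. CecA1 in esc was at 61.4, 210.0 and 146. Without WT library b, 8 of the 12 genes were called higher, among them CecA1 (1.74, adjusted p = 0.000312), CecA2 (1.93) and AttB (1.42). Drs (Drosomycin), the antifungal peptide, went the other way, with 83.0, 331 and 133 in WT and 94.5, 95.1 and 89.3 in esc (-0.97), and its log2 estimate was -0.17 without WT library b. Of the immune recognition and signalling list only PGRP-SA, a receptor for bacterial cell wall, was called among 14 tested (0.52, adjusted p = 0.0362), and that call was lost in 4 of the 6 fits with a library left out.

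**Figure D3:**
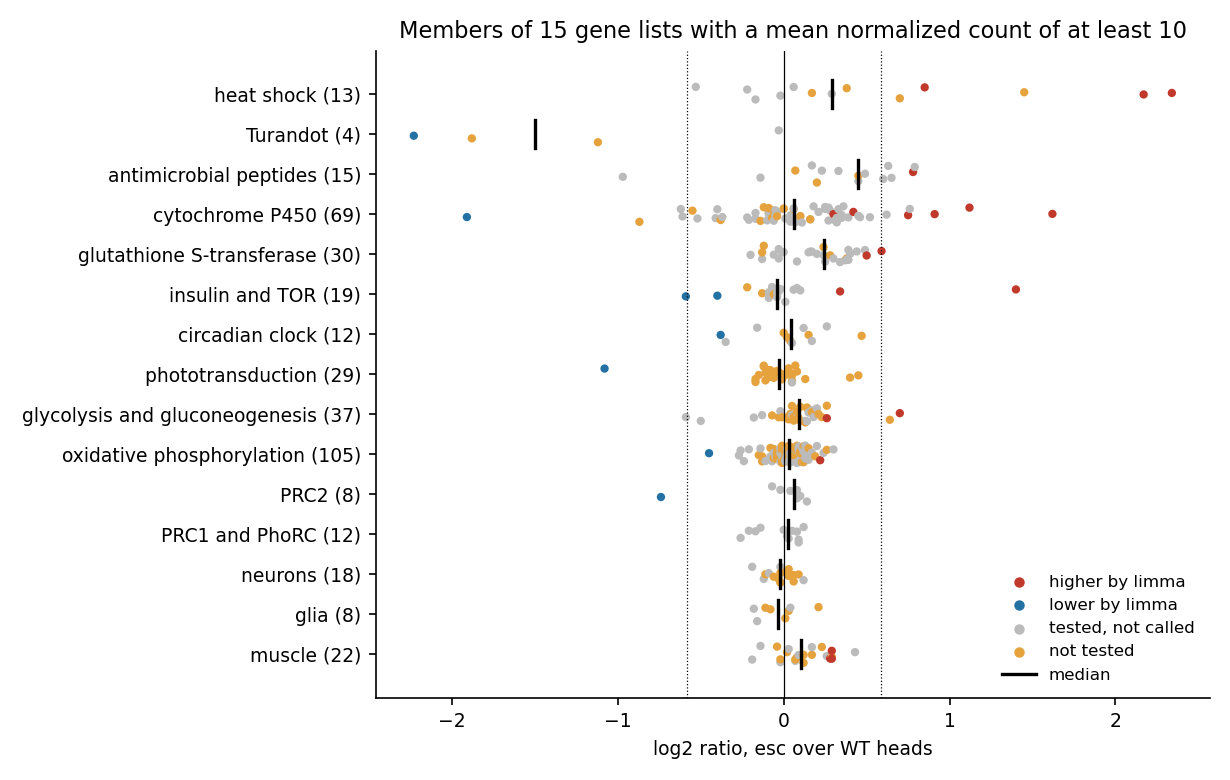
Log2 ratio of esc to WT heads (x axis) for the measured members of 15 gene lists (y axis, number of members in brackets), in red and blue where limma called them higher or lower, grey where tested and not called and orange where not tested. Black bars are list medians, at 0.29 for heat shock, -1.50 for Turandot and 0.45 for antimicrobial peptides, and dotted lines mark 1.5-fold.

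Cytochrome P450 enzymes oxidise hormones, lipids and foreign compounds. Of 69 measured members 6 were past 1.5-fold higher and 4 lower, with a median log2 ratio of 0.06. Of 55 tested 6 were called higher and 1 lower. Over all genes 1.43% were past 1.5-fold higher and 1.53% lower, and limma called 2.40% higher and 1.38% lower. Beside Cyp4s3, Cyp4e3 and Cyp4p2, the called members were Cyp6a2, known for metabolism of insecticides, with 308, 435 and 284 in WT and 637, 646 and 642 in esc (0.91, adjusted p = 1.05e-05), Cyp4e1 (0.75, adjusted p = 0.00339), Cyp4ac1 (0.42) and Cyp305a1 (0.30). The call of Cyp4ac1 was lost in 2 of 6 fits with a library left out and that of Cyp305a1 in 1. In the other groups of WT heads, scaled apart, the means of Cyp6a2 were 796 and 1012, against 642 in esc heads. Those of Cyp4e1 were 106 and 139.6, against 84.0. The sums of group means were larger in those WT heads, as given above, so these means overstate their levels beside esc heads. The values of Cyp4s3 and Cyp4e3 in those heads are given above. Cyp6w1 went from a group mean of 3021 to 1655 (-0.87) without a test. Cyp4g1, which makes cuticular hydrocarbons in oenocytes, varied too much between libraries to be read, from 3.92 to 126 in WT and 5.45 to 60.4 in esc. Of 25 tested glutathione S-transferases, which conjugate toxic compounds, GstE3 (0.59, adjusted p = 0.000544) and GstE7 (0.50, adjusted p = 0.0123) were called, both higher, with a median of 0.24 over 30 measured genes. The call of GstE7 was lost in 2 of 6 fits with a library left out (highest adjusted p = 0.0822) and in the 5-group fit (0.160).

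Insulin signalling had calls in both directions. Of 19 measured genes of the insulin and TOR list 16 were tested, 2 were higher and 2 lower, and the median log2 ratio was -0.04. Ilp6, the insulin-like peptide of the fat body, fell from 228, 240.3 and 232 to 155, 159 and 151 (log2 ratio -0.59, adjusted p = 0.000233), with groups far apart for their spread. Thor, the 4E-BP that restrains translation when insulin signalling is low, fell from 543, 501 and 519 to 385, 408 and 391 (-0.40, adjusted p = 0.000428). ImpL2, a secreted protein that binds insulin-like peptides, rose from 499.9, 473 and 528 to 594, 643 and 658 (0.34, adjusted p = 0.00199), a call kept with each library left out (highest adjusted p = 0.0203) and lost in the 5-group fit (0.332). Ilp3, made by the insulin-producing cells of the brain, was at 7.22, 7.85 and 4.17 in WT and 17.8, 17.8 and 15.3 in esc (1.40, adjusted p = 0.0327), a call on few reads that was lost in 4 of the 6 fits with a library left out. Of the 63 ageing genes that the study lists, 4 were called higher and 3 lower among 43 tested. Over all tested genes limma called 2.40% higher and 1.38% lower. CG42663 (0.42), Hsp68, Ilp3 and ImpL2 were higher and CG10383 (-0.47), Nmdmc and Thor lower.

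Glycolysis is a pathway that the study follows further. Of 37 measured genes of glycolysis and gluconeogenesis 2 were past 1.5-fold higher and 1 lower, 29 had a log2 ratio above 0, and the median was 0.09 against -0.00 for all genes. Over all 9060 measured genes 1.43% were past 1.5-fold higher and 1.53% lower, and 4519 had a log2 ratio above 0. So had 19 of 25 genes of the citric acid cycle, 4 of 5 of the pentose phosphate pathway and 67 of 105 of oxidative phosphorylation. Tpi, triosephosphate isomerase, went from a group mean of 1583 to 1853 (log2 ratio 0.23) and Pgi, phosphoglucose isomerase, from 3248 to 3755 (0.21). Neither could be tested, because of their high counts. Past 1.5-fold were Adh, CG32444, untested, with group means of 1206 and 1887 (0.64), and Mipp2, at -0.59 (adjusted p = 0.329). Only 15 genes of the list could be tested, and 2 were called, both alcohol or aldehyde enzymes. Over all tested genes 3.78% were called. Adh, alcohol dehydrogenase, which overlaps Adhr, rose from a mean of 157 ± 12.0 to 256 ± 43.1 (SD, n = 3 each), with no overlap of the groups (0.70, limma adjusted p = 0.000452), and Fdh at 633, 575 and 573 against 704, 710.2 and 718 (0.26, adjusted p = 0.00848). Values of core enzymes without a test were 0.26 for Gapdh1, 0.17 for Eno, 0.13 for Ald, 0.07 for Pgk and -0.01 for Pfk. ImpL3, lactate dehydrogenase, was at -0.50 (adjusted p = 0.0873). In the citric acid cycle list limma called 0 of 4 tested genes (1 at an unadjusted p under 0.05), at a median of 0.03 over 25 genes. Such a p was found in 1029 of all 7328 tested genes. In the pentose phosphate pathway it called 0 of 3 (0 unadjusted). Of 56 tested genes of oxidative phosphorylation 2 were called. They were mt:ND2, a mitochondrially encoded subunit of complex I, which fell from 608, 667 and 645 to 497, 436 and 469 (-0.45, adjusted p = 0.000110), and Etf-QO (0.22, adjusted p = 0.0347), whose call was lost in 4 of the 6 fits with a library left out and in the 5-group fit (0.482).

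Of 29 measured phototransduction genes only ninaD was past 1.5-fold, and the median log2 ratio of the list was -0.03. Over all measured genes 2.97% were past 1.5-fold. ninaD encodes a scavenger receptor that takes up carotenoids, from which the chromophore of rhodopsin is made, and was at 106, 75.5 and 102 in WT and 51.7, 35.7 and 46.9 in esc (log2 ratio -1.08, adjusted p = 0.000405). ninaE, the main rhodopsin, had group means of 138199 and 141307 (0.03), and Rh3 and Rh6 had ratios of 0.13 and -0.09. Rh5, 181 kb from esc, was at 0.45 and retinin, a protein of the corneal lens, at 0.40, both untested as were all but 2 genes of this list. Among 12 clock genes cwo, a repressor of the clock, was the only one called of 7 tested, with 453, 397 and 413 against 308, 318 and 342 (-0.38, adjusted p = 0.00278). The call was kept with each library left out (highest adjusted p = 0.0303) and lost in the 5-group fit (0.226). At an unadjusted p under 0.05 were 4 of the 7, 1 higher and 3 lower, with jet at -0.35 (adjusted p = 0.230) and Pdf, the clock neuropeptide, at 0.26 (0.186). Over all 7328 tested genes limma called 3.78%, and 1029 had an unadjusted p under 0.05. tim went from a group mean of 976 to 1353 (0.47) and per was at 0.17. The WT control was low for tim, with a scaled level of 199 against 401 and 527 in the other WT heads and 271 in esc heads. The hour of collection is not given in the sources used here, and its part in these values was not tested.

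The remaining lists held at most 2 calls each, where 3.78% of all tested genes were called. Obp57a, an odorant-binding protein, rose from 85.7, 118 and 121 to 189.7, 166 and 166 (0.69, adjusted p = 0.00141), and Obp49a was at 0.28 (adjusted p = 0.0494), among 19 tested genes of that list. The call of Obp49a was lost in 4 of the 6 fits with a library left out. Yp3, a yolk protein, rose from 206, 197 and 123 to 285, 270.4 and 289.8 (0.68, adjusted p = 0.00183). The cuticle proteins Cpr49Ae and Cpr49Ag rose by 0.59 and 0.58 (adjusted p = 0.00338 and 0.00461) among 14 tested, and the call of Cpr49Ae was lost in the 5-group fit (0.147). takeout (to) was higher (0.39, adjusted p = 0.0143) and CG2016 of the same family lower (-0.28, adjusted p = 0.0348), and both calls were lost with a library left out. Of 7 tested UDP-glycosyltransferases, 8 tested genes of dosage compensation and sex determination and 4 tested genes of gut digestion, limma called 0, with 3, 0 and 1 at an unadjusted p under 0.05. Among all 7328 tested genes 1029 were under this value.

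Markers of the cell types of a head were summed in each group. The summed normalized count of 18 neuronal markers was 35511 in WT and 35672 in esc (log2 ratio 0.01), that of 9 glial markers 15653 and 15423 (-0.02), that of 17 fat body markers 46702 and 46696 (-0.00) and that of 11 haemocyte markers 5152 and 5277 (0.03). Single genes carried some sums, Rfabg with 33356 of the fat body sum in WT and Gs2 with 7279 of the glial one. Fat body markers went both ways, with fit at -0.53, Lsp1alpha at -0.47, Lsp2 at -0.32 and Yp3 at 0.68, of which limma called Yp3. Of 3 tested glial markers 0 were called by limma and 2 had an unadjusted p under 0.05, wrapper (-0.18) and repo (-0.16). Among all 7328 tested genes 1029 had such a p. Of 5 tested neuronal markers 0 were called (0 unadjusted). Phototransduction genes, as a sign of eye tissue, were at -0.01. The 25 muscle markers were slightly higher in esc, 27963 against 25985 (0.11). Of 12 tested 3 were called, where 3.78% of all tested genes were. They were Mlp84B (0.28), Prm (0.29) and Mlp60A (0.29), each lost in 3 of 6 fits with a library left out. Markers of the male reproductive tract were close to absent, with sums of 15.4 and 9.18 and 10 of 26 at 0 in WT. In RNA of whole heads fewer cells of a type and less RNA per cell cannot be told apart.

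Genes in regions of the PRC2 mark passed the thresholds about as often as other genes. Regions of H3K27me3 were taken from the study's list for WT muscle at 3d, since no such list of heads was used here. Of 343 measured genes in these regions, 3 were past 1.5-fold higher and 5 lower (2.33%, against 3.01% of 8512 genes elsewhere), and limma called 5 higher and 7 lower of 298 (4.03% against 3.76%). Their median log2 ratio was -0.021. The lower genes were Dr, klu, Sardh, svp, retn, ana and dia, and the higher ones peb, CG4766, Oat, sr and CG5819. Of these 12 calls only Dr, svp, Oat and peb were kept in all 6 fits with a library left out, and Dr, svp, peb and CG4766 in the 5-group fit. svp, a nuclear receptor of photoreceptor development, went from 365 to 272 (-0.42, adjusted p = 0.00233), and klu, a zinc finger factor, from 46.2 to 26.9 (-0.78, adjusted p = 0.0327). peb, a zinc finger factor also called hindsight, was the strongest of the higher genes, at 177, 169.7 and 168 against 235, 281 and 309 (0.68, adjusted p = 0.000157). Of 5 measured Hox genes limma called 0 (0 at an unadjusted p under 0.05), with log2 ratios between -0.25 and 0.18.

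Genes next to esc were examined because a linked segment may stay with the deletion through backcrossing. Within 1 Mb of esc, 7 of 118 genes were past 1.5-fold (5.93%, Wilson 95% interval 2.90 to 11.7), against 3.30% on the rest of 2L and 2.88% on the other arms. By limma it was 8 of 100 tested (8.0%, 4.11 to 15.0), against 5.18% and 3.40%. The deleted gene is among these. In a window of 100 kb, chosen after the values were seen, 4 of 10 genes were past 1.5-fold, esc among them, and 3 of 7 tested were called. Between 100 kb and 1 Mb, 3 of 108 genes were past 1.5-fold (2.78%) and 5 of 93 called (5.38%), close to the shares on the rest of the arm. By limma the rest of 2L was itself above the other arms, at 5.18% (4.06 to 6.58) against 3.40% (2.97 to 3.90). Beyond 5 Mb it was 5.72%, and on 2R 4.59%. How far a linked segment reaches was not tested. Each of the 4 genes past 1.5-fold within 100 kb overlaps the large gene Pde1c, whose own group means were 1203 and 1110.0 (log2 ratio -0.12), and reads were counted without strand.

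The 3 neighbours beyond 1.5-fold are CG31704, Mal-B1 and Mal-B2. CG31704, 12.6 kb from esc, was at 174, 169 and 154 in WT and 105, 98.1 and 104 in esc, a log2 ratio of -0.70 (adjusted p = 0.000270), with no overlap. Mal-B1, 19.9 kb away, was at 65.0, 93.2 and 101 in WT and 177, 208 and 185 in esc, a log2 ratio of 1.14 (adjusted p = 1.92e-05). Its neighbour Mal-B2, 23.1 kb away and also a maltase, went from a group mean of 975 to 1646 (0.75) without a test. Both maltases were higher in esc heads, and CG31704, which lies between them and esc, was lower.

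In the other animals with the esc289 chromosome these genes had like values in heads. In esc E(z) heads, against their own WT, CG31704 was at -1.40 (adjusted p = 2.11e-06), Mal-B1 at 0.73 (adjusted p = 0.00203) and Mal-B2 at 1.09. In E(z), Pcl and Su(z)12 heads, which lack the esc deletion and share the WT libraries of esc heads, CG31704 was at 0.76, 0.54 and 0.48, Mal-B1 at -0.19, 0.07 and 0.01, and Mal-B2 at 0.08, -0.09 and 0.28. The direct test of esc heads against the mean of those 3 gave -1.27 for CG31704 (adjusted p = 8.41e-08) and 1.17 for Mal-B1 (adjusted p = 4.68e-06). In esc muscle CG31704 was at -0.49 (adjusted p = 0.348), Mal-B1 at -0.60 (adjusted p = 0.425) and Mal-B2 at 0.62. Whether the deletion or linked variants bear on these genes cannot be told apart in this design, in which 1 allele was used.

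**Figure D4:**
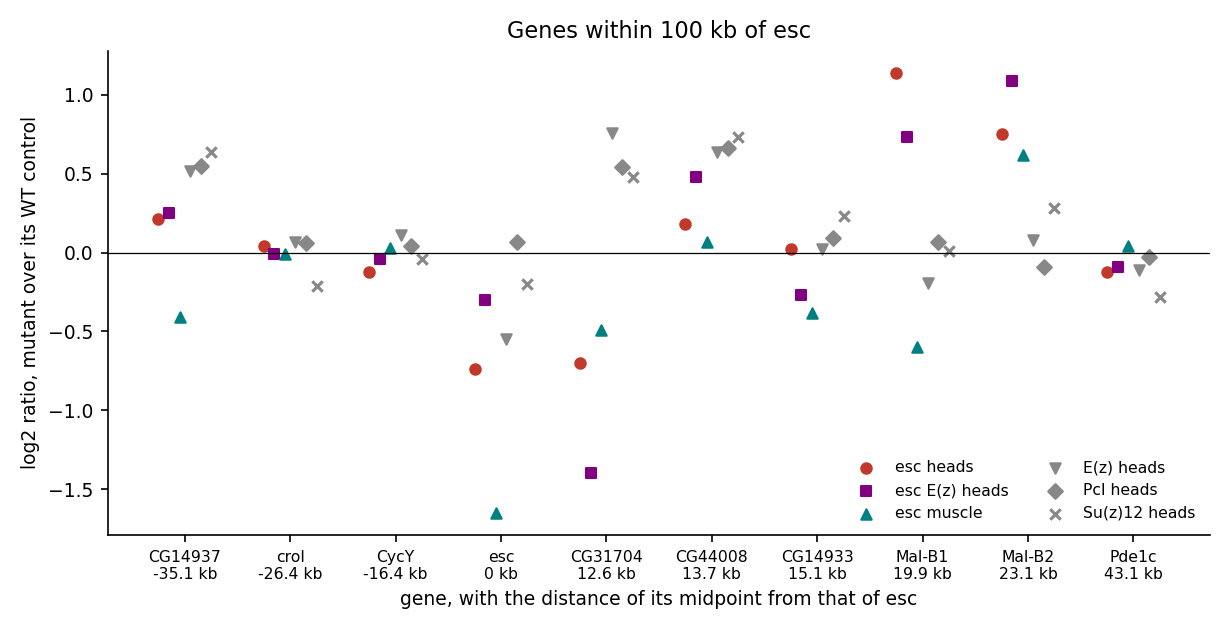
Log2 ratio of mutant to WT control (y axis) for the 10 measured genes within 100 kb of esc, ordered by the distance of their midpoints from that of esc (x axis, kb). Red circles are esc heads, purple squares esc E(z) heads, green triangles esc muscle and grey symbols the other single mutants. CG31704 (-0.70 and -1.40) and Mal-B1 (1.14 and 0.73) move in both kinds of heads with esc289 and not the same way in the heads without it.

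The genes called in esc heads were then read in esc muscle and in esc E(z) heads, whose control libraries are different ones. Of 251 called genes measured in muscle, 218 (86.9%) had the same sign there, where 60.9% of all tested genes did. Of 200 that could be tested in muscle 74 were called with the same sign and 0 with the opposite one (2 at an unadjusted p under 0.05). Limma called 4.52% of all genes tested in muscle, 1.99% higher and 2.53% lower. In esc E(z) heads 211 of 274 (77.0%) had the same sign, against 55.6% of all tested genes. There 93 of 263 were called with the same sign and 7 with the opposite sign, where limma called 5.58% of all genes, 3.09% higher and 2.49% lower. esc itself was lower in muscle, from 22.1 to 7.05 (log2 ratio -1.65, adjusted p = 0.0121). In esc E(z) heads it was not called (-0.30, adjusted p = 0.706).

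In 34 of 248 genes the call was made in esc heads, esc E(z) heads and esc muscle with 1 sign, 22 of them higher and 12 lower. Cyp4s3 was higher by 1.62, 1.92 and 1.96 in that order. Adh was higher by 0.70, 0.84 and 0.79, and CG2121 by 1.23, 0.68 and 1.36. Oat, ornithine aminotransferase, was higher by 0.49, 0.62 and 0.75, and mdy, an enzyme of triglyceride synthesis, by 0.42, 0.91 and 0.78. Among the lower genes were Dhc62B (-0.95, -1.30 and -0.80), lectin-28C, a C-type lectin (-0.94, -0.50 and -0.86), Acf1, a chromatin remodelling subunit (-0.51, -0.82 and -0.74), and mt:ND2 (-0.45, -0.50 and -0.72). Nmdmc and CG42876 were lower in heads and muscle of esc flies (-1.11 in muscle for each, adjusted p = 8.95e-06 and 2.60e-05) and did not pass the test in esc E(z) heads (-0.77 and -0.39, adjusted p = 0.222 and 0.0725).

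Opposite calls also occurred. Dro was higher in esc heads (0.78, a call lost in the 5-group fit) and lower in esc E(z) heads (-1.70, adjusted p = 9.38e-06), as was CG8757 (1.86 and -1.39, adjusted p = 0.00460). CG8757 has few reads, and the control of esc heads was low for it. Its mean was 12.7 there, 37.1 and 75.2 in the other groups of WT heads, scaled apart and with larger sums of group means, and 46.1 in esc heads. The Turandot gene TotX, level in esc heads (-0.03), was lower in esc E(z) heads (-1.60, adjusted p = 4.81e-05). A limma test of the esc change in heads less that in muscle called 19 of 6106 genes (0.311%), 14 with a higher value in heads (0.229%) and 5 with a lower one (0.0819%).

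**Figure D5:**
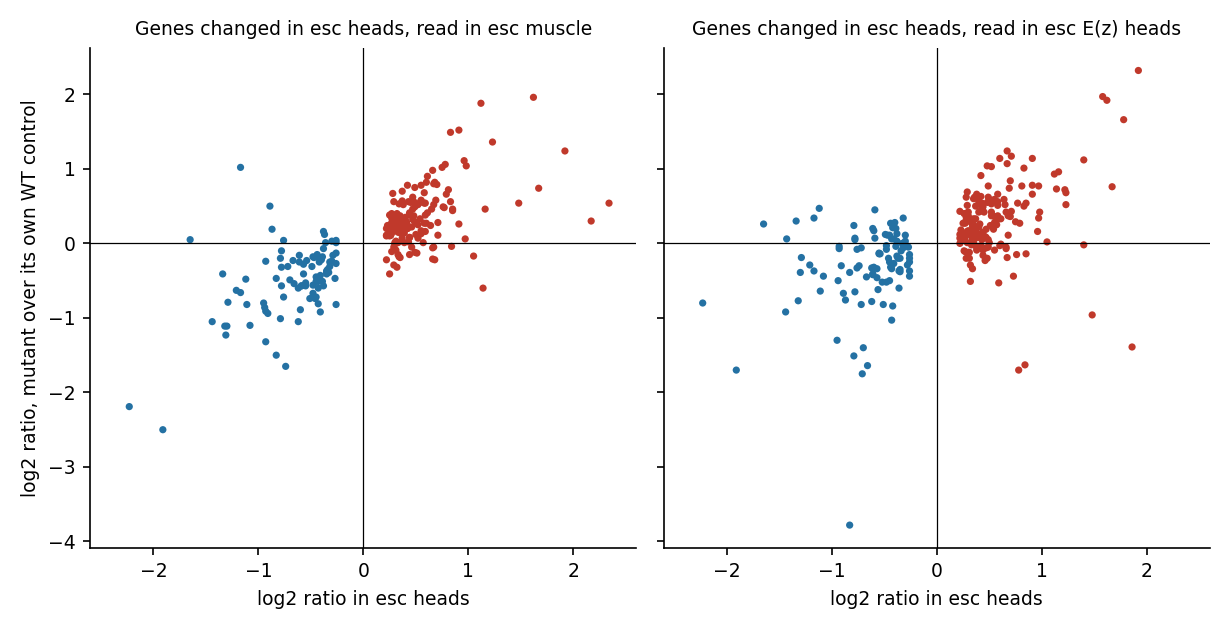
Genes called in esc heads, with the log2 ratio in esc heads (x axis) against that in esc muscle (left, y axis) and in esc E(z) heads (right, y axis), each over its own WT control. Red genes were higher and blue genes lower in esc heads. In muscle 218 of 251 genes and in esc E(z) heads 211 of 274 lie in the quadrants of equal sign, and Crg-1 and CG32581, which is listed at 0 in esc E(z) heads, lie outside the drawn range.

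The heads of the other single mutants allow a direct comparison of esc with its partners, since these libraries were scaled together. Against the mean of E(z), Pcl and Su(z)12 heads, limma called 164 genes higher (2.27%) and 176 lower (2.43%) in esc heads, in all 4.70% of 7238 tested. Of 264 genes called against WT, 92 were also called in this test in the same direction and 11 in the opposite one. The same esc libraries entered both tests, so these counts are not independent support. Among the 92 were Cyp6a2, 1.48 higher in esc than in the other mutants (adjusted p = 5.01e-08), Cyp4s3 (1.59, adjusted p = 8.31e-07), CG42876 (-1.38, adjusted p = 5.01e-08), lectin-28C (-1.22, adjusted p = 2.76e-06), ninaD (-1.08, adjusted p = 6.97e-05) and Thor (-0.58, adjusted p = 2.96e-05). takeout was also higher in this test (adjusted p = 6.53e-07), at 0.39 in esc heads and -0.80, -1.29 and -0.50 in the other mutants against WT. For esc itself the difference was -0.50 (adjusted p = 0.0570), and E(z), Pcl and Su(z)12 heads had log2 ratios of -0.55, 0.07 and -0.20 for esc against WT.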

How the data were processed

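The authors aligned single-end reads of 100 bases to dm6 with STAR, counted them per gene with HTSeq (intersection-strict, without strand) and scaled libraries with DESeq. The signal that the authors deposited is the mean normalized count of a group of 3 libraries, with 10 significant digits. The deposited tables also hold the authors' fold changes, log2 fold changes, p-values and adjusted p-values, which were not used. Of the tables, 7 were used and 9 were not.

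A mean is a sum of 3 whole read counts, each over 3 times a size factor, and genes that held 1 read in all gave the size factors. A script searched for the whole counts of each group mean below 1000. A gene was used where 1 solution existed, or only 1 with libraries within 4-fold of each other. In simulated data for esc against WT heads 15197 such triples were recovered, 0 wrongly. Of 183 changed genes among 7220 limma called 132, with 4 unchanged genes called. The simulation gave every gene the same spread between libraries beyond sampling noise, unlike the real libraries, so these call counts do not carry over to them. The test was limma 3.58.1 (R 4.3.3) on log2(normalized count + 1) with a mean-variance trend, Benjamini-Hochberg adjusted p under 0.05. Ratios use no pseudocount. The 5-group and direct fits used libraries scaled together. Tables of other WT controls were scaled apart, and scaled levels divide by the sum of the group means and multiply by 1000000.

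Members and gene lists were chosen with earlier results of these data known. Named genes were esc, PRC2, Tpi and Pgi, the 15 largest rises and falls at a mean of at least 50 and list members past 1.5-fold or called. All other genes named were chosen after their values were seen. Positions come from the Release 6 annotation, in which 16647 of 17023 genes were found. The descriptions of the Pcl heads name a muscle table, and titles and descriptions of the muscle WT control disagree. The titles and table contents were followed.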

Additional observations from a re-analysis of the deposited data

Results flagged for a closer look

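For 8 of the genes named, the difference between esc289 and WT in heads was unlike that in muscle by a limma test of the difference itself, which called 19 of 6106 genes (0.311%). Mal-B1 differed by 1.58 on the log2 scale (standard error 0.35, adjusted p = 0.0464), with a ratio of 1.14 in heads and, from 623 to 410.1, of -0.60 in muscle. peb and rk differed in opposite ways. peb was 0.88 higher in heads than in muscle (adjusted p = 0.0133), and rk was -2.13 (adjusted p = 0.00542), where its muscle means were only 8.42 and 17.1. CG17386 gave -1.78 (adjusted p = 0.0101), a gene whose WT heads stood apart from other WT heads.

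The remaining genes were higher in heads, with log2 ratios in muscle of -0.21 for Ubpy and 0.01 for Capa. The difference was 1.21 for CG5290 (adjusted p = 0.00107), 0.92 for Hr38 (0.0279), 0.87 for Ubpy, a ubiquitin protease (0.0254), and 0.56 for Capa, a neuropeptide gene (0.0279). The log2 ratios of CG5290 in E(z), Pcl and Su(z)12 heads were 1.37, 1.36 and 1.40, and those of Ubpy 1.24, 1.38 and 1.05, all against the same WT heads. In esc E(z) heads, with another control, CG5290 was at 0.02 and Ubpy at -0.05.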

How the results depend on the processing

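The count of genes past 1.5-fold, 130 higher and 139 lower, became 538 and 624 with a minimum mean of 1, 61 and 48 with a minimum of 50, 67 and 75 over genes that overlap no other gene, 30 and 28 at 2-fold and 479 and 502 at 5/4-fold. The limma count, 176 and 101, became 71 and 43 with all 5 groups in 1 fit, 11 and 10 without a mean-variance trend (added after the data were seen) and 557 and 472 at an unadjusted p under 0.05. Of the 277 genes 114 were also called in the 5-group fit and 20 in the fit without a trend. With each library left out in turn it ranged from 117 to 172 higher, lowest without esc library b, and from 72 to 92 lower. Pseudocounts of 0.5 or 5, other minimum means and centring kept both counts within 1.5 times.

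The share of equal sign in esc E(z) heads (77.0%) was 82.1% for genes of the 5-group fit, 85.0% without a trend and 70.4% at an unadjusted p, and ranged from 72.7 to 78.7 with a library left out. In muscle (86.9%) it was 93.3% without a trend and 80.3% at an unadjusted p, and ranged from 88.0 to 89.9. The share past 1.5-fold near esc (5.93%) was 4.10% within 5 Mb and, in windows added after the data were seen, 40.0% within 100 kb, 2.78% from 100 kb to 1 Mb and 5.13% with esc left out. Among 109 tested named genes, no call turned into a call of the opposite sign in any of 13 alternatives. This does not cover the sign of estimates that were not called. The fit without a trend lost 57 calls of named genes, the 5-group fit 21 of 104, and leaving out 1 library 2 to 13. The cause was not tested.

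No paired analysis was possible because the recovered libraries carry no replicate number. Genes of high counts, among them Hsp83, Tpi and Pgi, have no spread between libraries here. Depth and the number of libraries, 3 a group, limit the calls.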
